A study of Homo sapiens with 16 samples.

Results

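BCR, ABL1, EXOSC2, PRDM12, FIBCD1, LAMC3, AIF1L, NUP214 and XKR3 are 9 of the 19974 protein-coding genes placed on chromosomes 1 to 22 and X of GRCh38.p14. They were taken as the genes named around the BCR-ABL1 and NUP214-XKR3 rearrangements of K562, an established human line from chronic myelogenous leukemia that the labels call erythroleukemia, and the rule that names them used no H3K27ac value. A peak was counted for a gene when it lay in the gene body plus 10 kb on either side and had a −log10 q-value of at least 2, that is, a q-value of at most 1%. In all, 1164 of the 1065840 peaks of the 14 lists lay in these windows, between 55 and 102 peaks per list with a median of 85. The windows of PRDM12, EXOSC2 and ABL1 overlap, as do those of AIF1L and NUP214, so that a peak can belong to more than 1 gene.

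Each of the 14 lists is 1 ChIP library of fixed K562 cells made with the H3K27ac antibody ab4729 and compared with an input library of the same arm. In the fixed-antibody arm 0.25 µg of antibody was added to 7 amounts of chromatin measured as DNA (DNAchrom), doubling from 0.31 to 20 µg, and the lists H3K27ac-0.31-T32, H3K27ac-0.62-T16, H3K27ac-1.25-T8, H3K27ac-2.5-T4, H3K27ac-5-T2, H3K27ac-10-T1a and H3K27ac-20-T0.5 are called here T32, T16, T8, T4, T2, T1a and T0.5. In the normalized arm the antibody was scaled to titer 1 at the same 7 amounts, from H3K27ac-0.31-T1 to H3K27ac-20-T1. Titer is the antibody amount relative to the one the study chose as optimal for that amount of DNAchrom. All libraries share 1 cell line and 1 antibody and each condition has 1 library, so the 5 lists of titer over 1 and the 9 lists of titer 1 or below pool different amounts, and p-values measure the spread between these libraries only. The 2 arms had different inputs, so the effects of arm and of input cannot be told apart. The lists hold no reads, and the total depth of a library is not given by them. The paper reports read pairs and mapping for each library, which entered no test here.

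H3K27ac, acetylation of histone H3 at lysine 27, marks active promoters and enhancers. In chronic myelogenous leukemia a translocation between chromosomes 9 and 22 joins the 5′ part of BCR to the 3′ part of ABL1, and the fusion protein is a constantly active tyrosine kinase. K562 carries this fusion in extra copies, and it also carries a fusion of NUP214, which encodes a nucleoporin of the cytoplasmic side of the nuclear pore, to XKR3, which encodes a member of the XK-related family of membrane proteins. MACS2, the peak caller used for these lists, compares the pileup of ChIP fragments at a peak summit with a local background taken from the input, and gives their ratio as the fold enrichment after adding 1 to both. A segment with more input fragments therefore needs more ChIP fragments to reach the same fold enrichment.

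The start sites with and without a peak are shown with their promoter sequences, since the 4 genes with a start-site peak and those without one carry the contrast among these genes. Each sequence is from RefSeq (GRCh38.p14), runs 5′ to 3′ on the strand of the gene from 250 bases before to 50 bases after the start, and has the letters GGGCGG or CCAAT, on either strand, in capitals. The first 4 had a peak within 1 kb of the start in all 14 lists, and FIBCD1 had none in any list.

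BCR, chr22:23180259-23180558, plus strand: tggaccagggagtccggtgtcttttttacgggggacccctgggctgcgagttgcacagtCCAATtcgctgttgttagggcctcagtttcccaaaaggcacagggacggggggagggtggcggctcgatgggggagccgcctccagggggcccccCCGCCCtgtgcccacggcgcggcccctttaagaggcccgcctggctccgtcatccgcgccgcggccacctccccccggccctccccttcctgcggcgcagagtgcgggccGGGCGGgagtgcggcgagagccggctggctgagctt
ABL1, downstream start, chr9:130835004-130835303, plus strand: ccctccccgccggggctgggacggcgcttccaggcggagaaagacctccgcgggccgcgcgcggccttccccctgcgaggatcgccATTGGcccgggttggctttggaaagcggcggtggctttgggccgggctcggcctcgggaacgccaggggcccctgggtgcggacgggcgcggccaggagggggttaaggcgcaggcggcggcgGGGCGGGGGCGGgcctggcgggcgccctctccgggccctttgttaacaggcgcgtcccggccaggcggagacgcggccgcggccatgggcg
NUP214, chr9:131125336-131125635, plus strand: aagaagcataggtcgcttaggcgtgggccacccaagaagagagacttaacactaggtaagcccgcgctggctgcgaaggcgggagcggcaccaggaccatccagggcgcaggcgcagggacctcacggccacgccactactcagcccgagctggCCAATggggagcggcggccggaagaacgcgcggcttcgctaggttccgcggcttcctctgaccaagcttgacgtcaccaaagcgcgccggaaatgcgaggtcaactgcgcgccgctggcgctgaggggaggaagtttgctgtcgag
EXOSC2, chr9:130693510-130693809, plus strand: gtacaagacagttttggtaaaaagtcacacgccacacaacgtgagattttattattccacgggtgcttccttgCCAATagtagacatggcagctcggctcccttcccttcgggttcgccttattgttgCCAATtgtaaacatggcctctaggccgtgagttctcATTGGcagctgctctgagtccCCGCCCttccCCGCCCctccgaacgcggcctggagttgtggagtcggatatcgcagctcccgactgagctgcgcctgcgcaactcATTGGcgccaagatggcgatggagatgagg
FIBCD1, chr9:130939198-130939497, minus strand: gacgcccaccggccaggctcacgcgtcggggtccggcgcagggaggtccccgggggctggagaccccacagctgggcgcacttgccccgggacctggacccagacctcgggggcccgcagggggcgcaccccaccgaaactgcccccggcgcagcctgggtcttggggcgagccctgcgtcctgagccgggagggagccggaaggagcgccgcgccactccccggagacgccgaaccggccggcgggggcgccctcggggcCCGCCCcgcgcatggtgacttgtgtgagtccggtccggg

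GGGCGG occurred 2 times in the promoters of BCR, ABL1 and EXOSC2, 1 time in those of FIBCD1 and PRDM12, and 0 times in that of NUP214, and 45.0% of 35116 RefSeq promoters of the same length hold it on either strand. CCAAT occurred 4 times in the EXOSC2 promoter, 1 time each in those of BCR, ABL1 and NUP214, and in 34.6% of all promoters. Among the available promoters without a peak, CCAAT occurred 1 time at a second start of NUP214 and 0 times in FIBCD1, PRDM12 and XKR3. GGGCGG occurred 0 times at that NUP214 start and in XKR3. TATAAA and GATAA, which 11.5% and 22.7% of all promoters hold, were found in none of the 5 sequences shown. TATAAA occurred 2 times at 1 start of XKR3, and GATAA 1 time at the second start of NUP214, both without a peak. GC content was 71.7% in BCR, 78.3% in the downstream ABL1 promoter, 65.3% in NUP214 and 55.7% in EXOSC2, against 78.3% in FIBCD1 and 71.7% in PRDM12, where the median of all promoters was 58.7%. The 300 bases held 27, 42, 31 and 19 CpG dinucleotides in the 4 promoters with a peak, 36 in FIBCD1 and 27 in PRDM12. The other available promoters without a peak had fewer, 5 and 3 at the 2 starts of XKR3, with GC contents of 43.3% and 30.3%, and 3 at a second start of NUP214, position 131190139, with a GC content of 39%. GC content thus ranged from 30.3% to 78.3% in the available promoters without a peak and from 55.7% to 78.3% in those with one. Promoter sequences were not available for LAMC3 and AIF1L, which had no start-site peak, nor for the upstream ABL1 start, which had one. A match of letters describes the window and is not a bound site.

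H3K27ac peaks were unevenly spread over the 9 genes. BCR, chr22:23180509-23318037, held 696 peaks over the 14 lists, ABL1, chr9:130713043-130887675, held 205 and NUP214, chr9:131125586-131234663, held 179. EXOSC2, chr9:130693760-130704894, which encodes a core subunit of the RNA exosome, held 87 peaks, of which 35 were shared with the window of a neighbouring member. AIF1L, chr9:131096531-131123144, an actin-binding protein gene, held 35 peaks, and all of them were shared with the NUP214 window because they lay around the NUP214 start. PRDM12, chr9:130664594-130682983, a zinc finger regulator of sensory neuron development, held 30 peaks, and its 1 region with a peak in every list, chr9:130680717-130682675, lay at the 3′ end of the gene and not at its start. XKR3, chr22:16783480-16825411, held 1 peak in each of 2 lists, T32 and T2. FIBCD1, chr9:130902440-130940709, an acetyl-binding membrane receptor gene, held 1 peak in 1 list, T32, which lay in the flank shared with ABL1. LAMC3, chr9:131009174-131094473, a laminin gamma chain gene, held 0 peaks in 14 lists. No start site of PRDM12, FIBCD1, LAMC3, AIF1L or XKR3 had a peak within 1 kb, nor had the second start of NUP214.

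After merging over lists, the 9 windows held 167 regions, of which 21 had a peak in all 14 lists, 12 in 10 to 13 lists, 70 in 2 to 9 lists and 64 in 1 list. By place, 9 regions lay within 1 kb of a start site of a member, 143 lay elsewhere inside a member and 15 lay in a flank. BCR alone had 12 of the 21 regions found in every list. Besides the start site, the strongest of them were chr22:23222116-23226501, with fold enrichments up to 6.06 and pileups up to 62 fragments, and chr22:23216680-23221918, with fold enrichments up to 5.76. BCR covered length, the sum of bases under peaks in the window, took 13% to 24% of the window, which placed BCR between the 80.1 and 93.2 percentile of the 19974 genes by covered share. By number of peaks BCR ranked between 11 and 131 among all genes, depending on the list. ABL1 took 3.4% to 6.2% of its window and NUP214 4.1% to 6.7%, close to the 54.2 to 69.6 percentile of all genes. ABL1 had 4 regions with a peak in every list and NUP214 had 3, 2 of which lay at its start.

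Pooled over the 9 windows, with 696 of the 1164 peaks in BCR, the peaks combined a low fold enrichment with a high pileup. The median fold enrichment of the member peaks was between 2.75 and 3.14 per list, against 4.62 to 5.02 over all peaks of the same lists. Their median pileup was between 21 and 27 fragments, against 10 to 11 over all peaks. Member peaks with a fold enrichment under 3 made up 44.1% to 67.4% of the member peaks of a list, and such peaks made up 0.233% to 1.15% of all peaks. The ranges of member peaks and of all peaks did not overlap in any of these 3 measures. The pooled values did not hold for every gene. Over all lists, the median fold enrichment and pileup of a peak were 2.75 and 26 fragments in BCR, 3.21 and 26 in ABL1 and 2.93 and 22 in NUP214, but 5.93 and 13 in PRDM12, 4.66 and 11 in EXOSC2 and 5.73 and 56 in AIF1L.

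**Figure D1:**
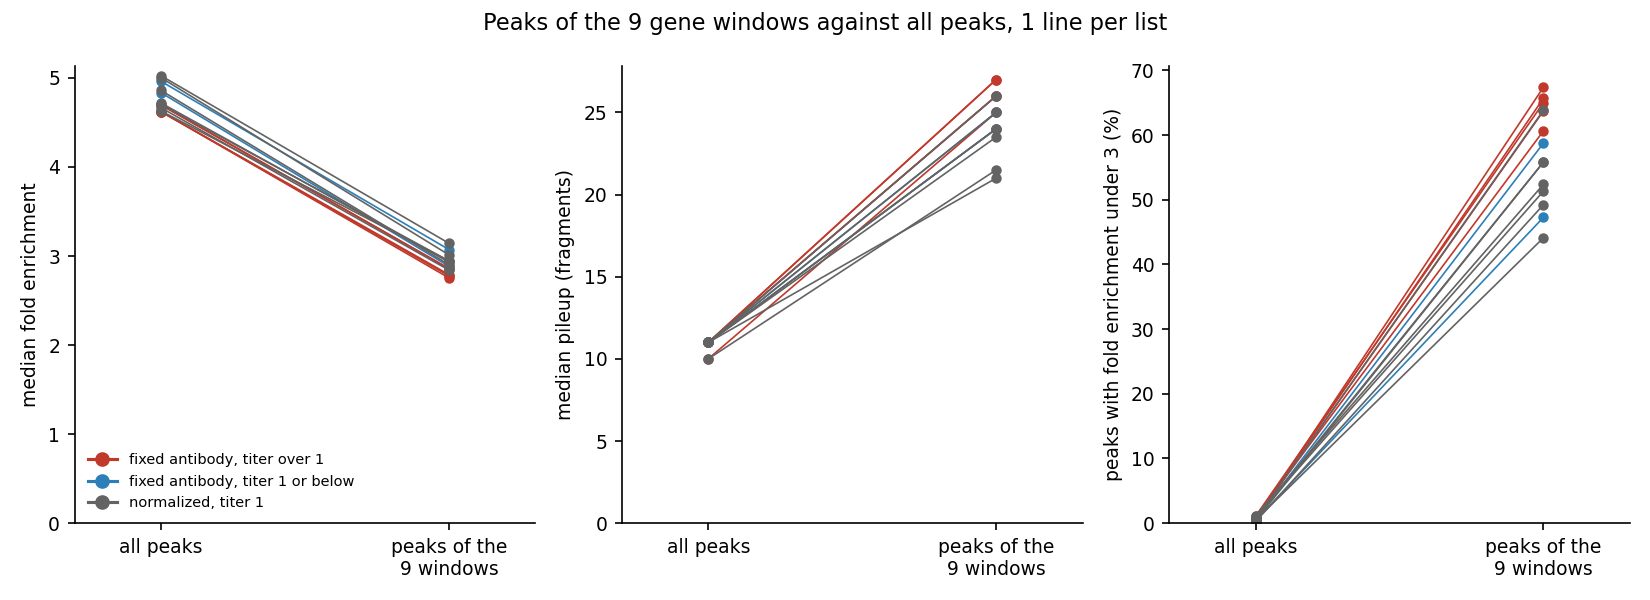
Median fold enrichment, median pileup in fragments and percent of peaks with a fold enrichment under 3 (y axes) for all peaks and for the peaks of the 9 gene windows, with 1 line for each of the 14 lists coloured by arm and titer. In every list the pooled member peaks, most of them in BCR, had the lower fold enrichment, the higher pileup (21 to 27 against 10 to 11 fragments) and the larger share of peaks under 3.

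The local background of each peak was solved from its fold enrichment and p-value, and is given below as relative background, its ratio to the median local background of the same list. On this scale 1 is the median peak of a list, and the median itself was between 1.19 and 1.54 fragments. The values describe the input as MACS2 used it. They rest on 2 inputs and not on 14 independent measurements, no test was made on them, and copy number itself was not measured.

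Along chromosome 9 the relative background stepped up inside ABL1. The 28 peaks of the ABL1 window up to chr9:130726069 had a median relative background of 1.00 and a range of 0.676 to 2.96. The 177 peaks from chr9:130751823 on had a median of 5.53 and a range of 3.5 to 9.0, so the 2 sets did not overlap. The step lay in a stretch of 25753 bp without a peak, 13 to 39 kb from the upstream start of ABL1 and before the downstream start at position 130835254. Averaged over list medians, the relative background was 5.60 ± 0.341 (SD of 14 lists) in ABL1 after the step and 1.06 ± 0.0889 from PRDM12 to the step. It was 5.59 in the fixed arm and 5.60 in the normalized arm, each over 7 lists, in ABL1 after the step.

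Between ABL1 and AIF1L the background could hardly be read, with 1 peak in the FIBCD1 window and 0 in the LAMC3 window. Farther along chromosome 9, the peaks from AIF1L into NUP214 had a relative background of 5.85 ± 0.425, and those in the last part of NUP214 had 4.01 ± 0.228 (SD of 14 lists). The change fell about 73 kb into NUP214, and peaks on its 2 sides had overlapping ranges, 4.56 to 12.7 before it and 3.26 to 7.08 after it. The higher level went on through FAM78A, the next gene, at 4.0 and ended in a stretch of 7835 bp between chr9:131280096 and chr9:131287932, after which PLPP7 was at 1.08. Before the step FUBP3, the last gene before PRDM12, was at 0.977. Of the 9 neighbour genes within 500 kb that had a peak in all 14 lists, 1 was at 3 or above and 8 were under 1.5.

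Along chromosome 22 the relative background stepped down inside BCR. The 694 peaks up to chr22:23290399 had a median of 6.23 with a range of 4.67 to 10.7, and the 2 peaks from chr22:23312139 on, 1 each in 2 lists, had 0.630 and 0.667. The step lay 110 to 132 kb from the start of BCR. List medians before it were 6.15 ± 0.187 (SD of 14 lists), 6.26 ± 0.111 in the fixed arm and 6.04 ± 0.183 in the normalized arm. Beyond BCR the first gene with a peak in every list, LOC124900476, was at 0.663 and SMARCB1 at 0.681. Towards the centromere RAB36 was at 6.37, PRAME at 4.71, CRKL at 3.31 and DGCR2 at 3.03, and the level fell to 1.3 at PEX26. The 2 XKR3 peaks had 2.52 in T32 and 2.23 in T2, between CCT8L2 at 2.96 and IL17RA at 1.33. From 500 kb before XKR3 to 500 kb after BCR, 50 of the 68 neighbour genes with a peak in all lists were at 3 or above and 15 were under 1.5.

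**Figure D2:**
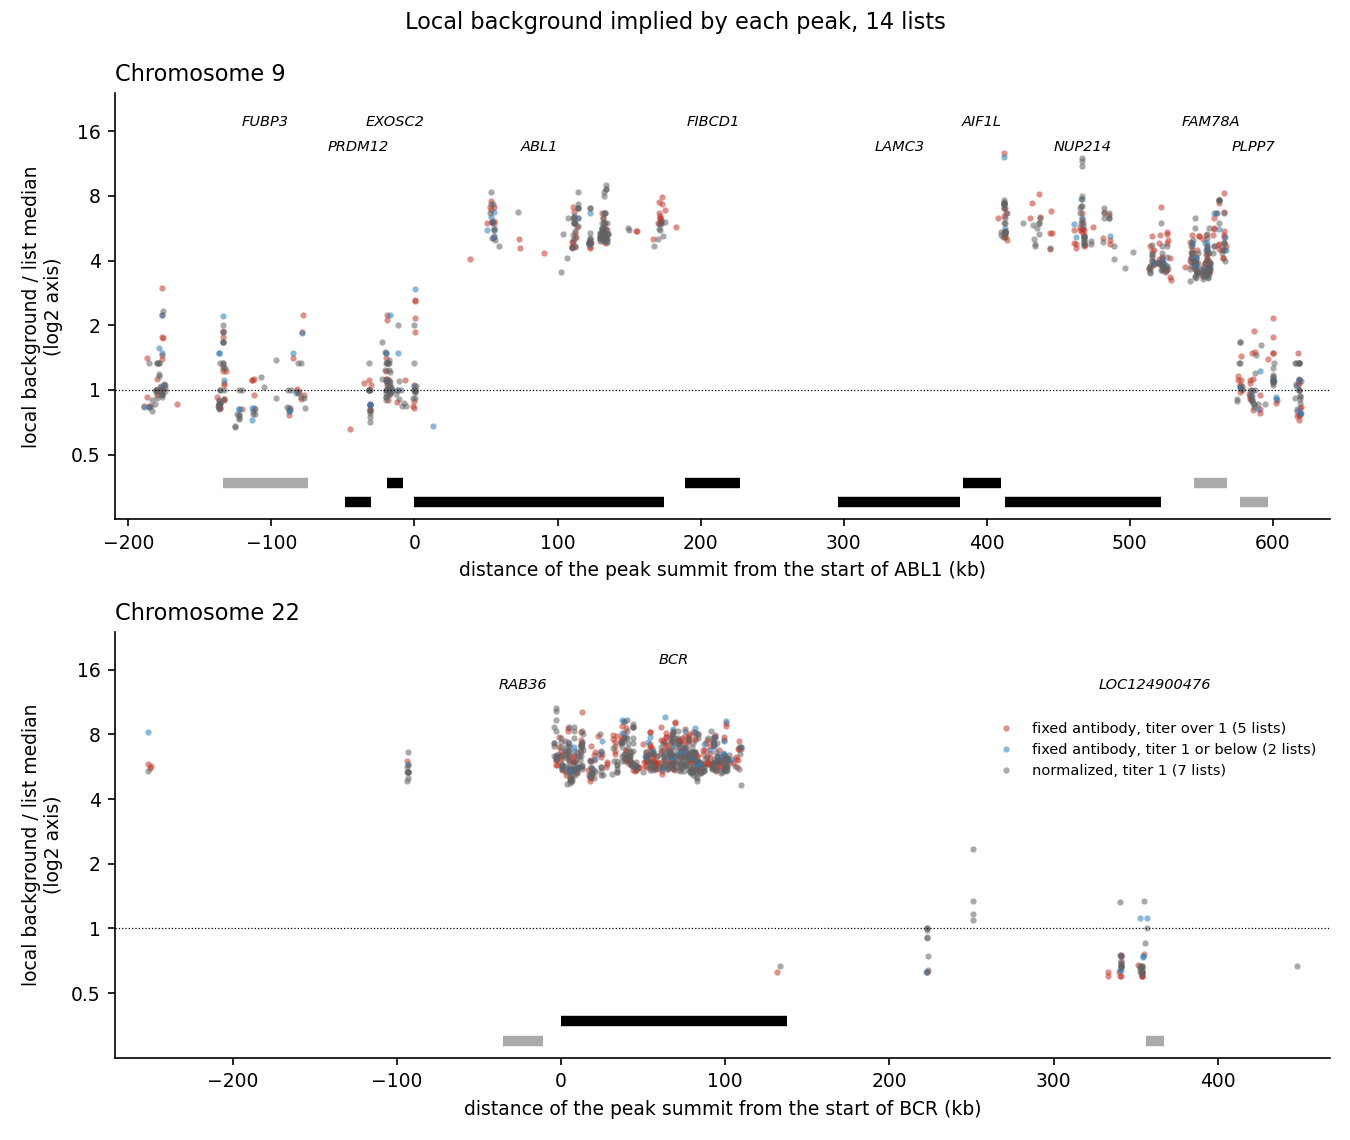
Relative background of every peak in the 14 lists (y axis, log2 scale) against the distance of its summit in kb from the upstream start of ABL1 on chromosome 9 and from the start of BCR on chromosome 22 (x axes), with member genes as black bars and other genes as grey bars. The peaks rise from about 1 to about 5.5 inside ABL1 and are high again from AIF1L to FAM78A. Between them the FIBCD1 window held 1 peak and the LAMC3 window 0. On chromosome 22 the peaks fall from about 6.2 to about 0.65 inside BCR.

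**Figure D3:**
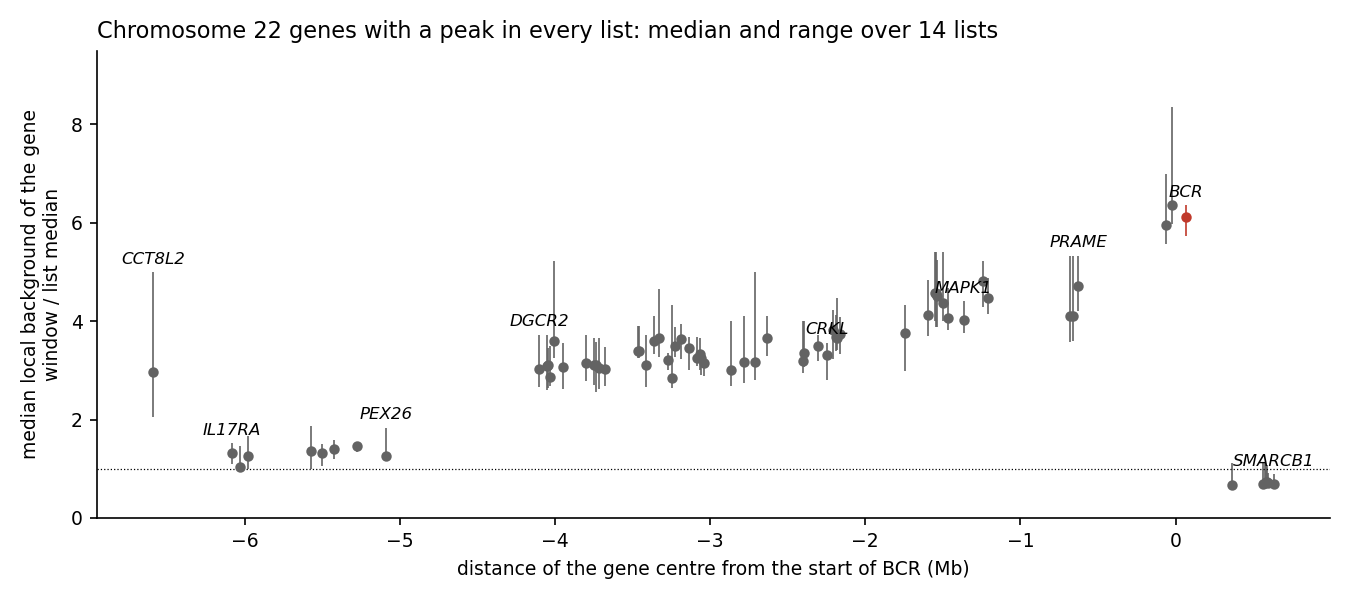
Median relative background of the peaks of each chromosome 22 gene window (y axis) against the distance of the gene from the start of BCR in Mb (x axis), with the range over 14 lists as bars and BCR in red. CCT8L2 is at 2.96 before XKR3, IL17RA at 1.33 and PEX26 at 1.3, and genes are near 3 from DGCR2, above 4 towards PRAME, 6.12 at BCR and near 0.7 beyond it.

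Read against all genes, 40 of the 12271 genes with a peak in every list had a median relative background of at least 3 in each list, which is 0.326% of them. They lay on chromosome 22 (33 genes), chromosome 9 (4), chromosome 13 (2) and chromosome 1 (1). Of the 6 members with a peak in every list, ABL1, AIF1L, NUP214 and BCR were among them, and PRDM12 and EXOSC2 were not. EXOSC2 had a median of 1.08 and PRDM12 of 0.941 over the 14 lists. These 2 genes therefore went against a description of all 9 genes as 1 segment of raised input, XKR3 lay between, FIBCD1 rested on 1 peak at 5.77, and LAMC3 had no peak from which a background could be read.

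The 2 start sites of ABL1 lay on either side of the step and differed in fold enrichment. The upstream start had a fold enrichment of 6.23, 10.1, 5.82, 6.76 and 9.82 in T32, T16, T8, T4 and T2, and a lowest value of 8.24, a median of 13 and a highest value of 17.8 over the 9 lists of titer 1 or below. The downstream start had 4.36, 3.82, 3.53, 3.78 and 3.88 in the 5 lists of titer over 1, and 2.88, 3.80 and 4.30 as the lowest, median and highest value of the others. In every list the upstream start had the higher fold enrichment. The pileups of the 2 starts overlapped, with 25 to 41 fragments upstream and 23 to 36 downstream. The background was 1.19 to 3.98 fragments upstream and 6.01 to 8.98 downstream, without overlap. At the upstream start the relative background was 1.06, 1.86, 2.16, 2.61 and 2.63 in the lists of titer over 1, in ascending order, and had a median of 1.00 with a highest value of 2.96 in the others.

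The BCR start had a fold enrichment of 4.60, 4.45, 5.31, 5.21 and 5.14 in T32, T16, T8, T4 and T2, on pileups of 45 to 51 fragments. In the 9 lists of titer 1 or below it had a lowest value of 4.84, a median of 6.52 and a highest value of 8.62, on pileups of 46 to 69 fragments, so both ranges overlapped. The NUP214 start had 5.12, 5.29, 5.79, 6.15 and 5.42 in the 5 lists of titer over 1, on 43 to 51 fragments. In the other lists the NUP214 start had 6.56, 7.47 and 8.36 as lowest, median and highest value, on 55 to 77 fragments, and neither range overlapped. The EXOSC2 start had 6.57, 4.70, 8.05, 4.66 and 7.71 in the lists of titer over 1, on 10 to 20 fragments, and 7.97, 9.66 and 12.0 as lowest, median and highest value in the others, on 17 to 29 fragments. At titer 1 or below the median of EXOSC2 was above those of BCR and NUP214 on fewer fragments, at a relative background of 0.924 to 1.34 against 5.33 to 7.67.

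**Figure D4:**
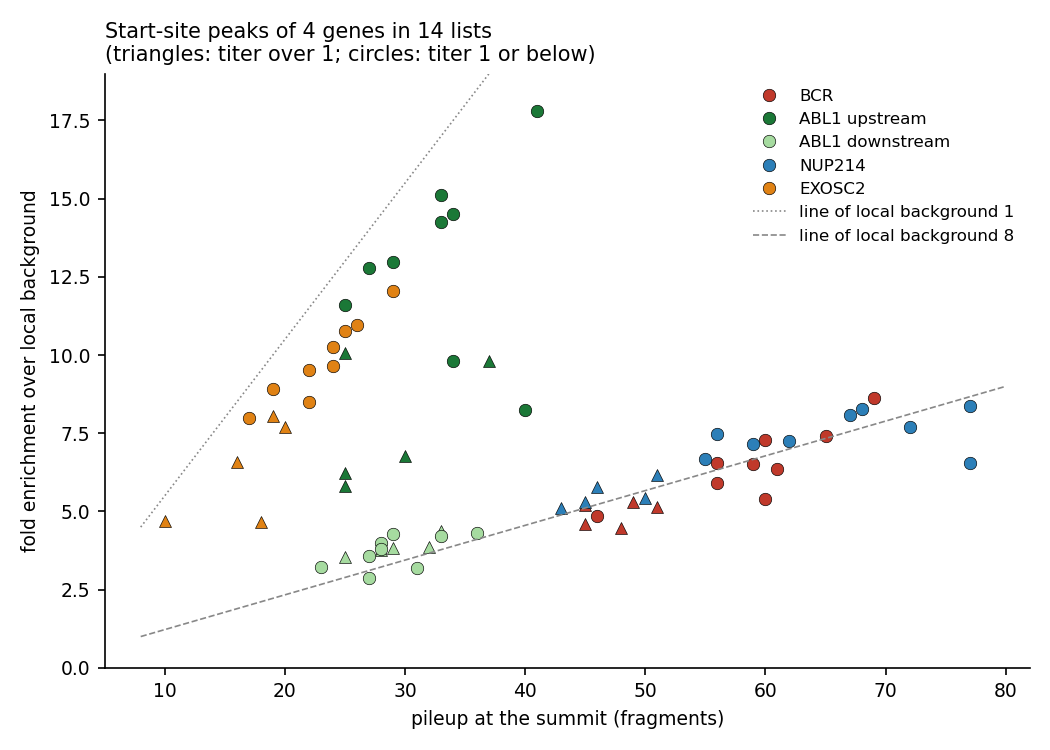
Fold enrichment (y axis) against pileup in fragments (x axis) of the start-site peaks of BCR, ABL1 (upstream and downstream), NUP214 and EXOSC2 in each of the 14 lists, with triangles for titer over 1, circles for titer 1 or below and lines of equal local background at 1 and 8 fragments. BCR, NUP214 and the downstream ABL1 start lie along the line of 8, and EXOSC2 and most upstream ABL1 peaks lie near the line of 1.

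To describe these genes under excess antibody, the 5 lists of titer over 1 were compared with the 9 lists of titer 1 or below. All 5 are of the fixed arm and 7 of the 9 are of the normalized arm, so titer cannot be told apart from arm and input. This holds for covered length and for fold enrichment, whose background comes from the input. Within the fixed arm titer falls as the amount of DNAchrom rises. The fit was made on all genes with an exact permutation test over lists, two-sided, and Benjamini-Hochberg adjustment, and a gene was called at an adjusted p below 0.05. Over all 14884 genes tested for covered length, 54.8% were called lower at titer over 1 and 0.679% were called higher. Of the members 8 could be tested, 1 was called lower and 0 higher, and whether 1 of 8 differs from the background was not tested. Their median difference was −363 bp, with 5 below 0 and 3 above, and that of all genes was −1070 bp.

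ABL1 was the member called lower. Its covered length was 8118, 6686, 9094, 9053 and 8635 bp in T32, T16, T8, T4 and T2. In the 9 lists of titer 1 or below it was 8083 bp at the lowest, 10846 bp at the median and 12074 bp at the highest. The means were 8317 ± 993 bp (SD, 5 lists) and 10470 ± 1485 bp (SD, 9 lists), 79.4% of the level at titer 1 or below (exact permutation test, adjusted p = 0.0349), and the ranges overlapped. Within the fixed arm the difference turned to 81.2 bp higher at titer over 1, with 8389 bp in T1a and 8083 bp in T0.5, and 5 lists against 2 cannot give a p below 0.0476. Every fixed-arm list lay below every normalized list, 6686 to 9094 bp against 9793 to 12074 bp, as was true of 5.89% of all genes and, of the 8 members with values, of ABL1 and PRDM12. At equal titer and 10 µg, with 1 library each, ABL1 had 8389 bp in T1a and 12074 bp in H3K27ac-10-T1b. These 2 libraries differed at titer 1 also, but 1 library each gives no spread to set the difference against. In the comparison of 5 with 9 lists the parts of arm and titer cannot be told apart, since all 5 lists of titer over 1 are of the fixed arm. The call was also lost when the DNAchrom amounts were paired, with adjusted p = 0.275 by the exact sign-flip permutation test, whose 6 pairs allow no p below 0.0312.

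BCR covered length was 30054, 35716, 35778, 37361 and 33301 bp in the 5 lists of titer over 1. In the others it was 20402 bp at the lowest, 31464 bp at the median and 37833 bp at the highest, and the ranges overlapped. The means were 34442 ± 2850 bp (SD, 5 lists) and 30406 ± 6006 bp (SD, 9 lists), and the difference was not larger than the spread between lists (exact permutation test, adjusted p = 0.247). At titer over 1 BCR kept 113% of its covered length at titer 1 or below, while the median gene with a peak in every list kept 70.1%, with quartiles of 60.0% and 80.4%. This ratio placed BCR at the 98.3 percentile of 12271 genes, and 4.41% of them were at 100% or above. The number of BCR peaks was 61, 60, 67, 59 and 50 in the lists of titer over 1 and 29 to 56, with a median of 46, in the others. Of the regions found in several lists of 1 titer class and in no list of the other, 6 were found at titer over 1 and 13 at titer 1 or below. Of the 6, 5 lay inside BCR, each with a fold enrichment of at most 2.97. BCR held 71 of the 167 regions, and regions of the other class lay in its window too, such as chr22:23175734-23176285 in 5 lists. The classes hold 5 and 9 lists and the share over all regions of the genome was not computed, so nothing particular to BCR is read from these counts. All 5 values of BCR covered length at titer over 1 lay within the range of the other 9.

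The other members did not pass the test for covered length. NUP214 had 5323, 6435, 7392, 7061 and 6295 bp at titer over 1 and 5994, 7284 and 8608 bp as lowest, median and highest value in the others (exact permutation test, adjusted p = 0.216). AIF1L had 1836, 2618, 2485, 2488 and 2522 bp against 2382, 2582 and 3319 bp (exact permutation test, adjusted p = 0.104). Both pairs of ranges overlapped. EXOSC2 had 2178, 2279, 2548, 3380 and 3467 bp against 1883, 3646 and 4947 bp (exact permutation test, adjusted p = 0.158). PRDM12 had 975, 985, 1199, 1293 and 1285 bp against 649, 1477 and 2285 bp (exact permutation test, adjusted p = 0.171). In PRDM12 the low values of the second group were the 2 fixed-arm lists, with 1034 and 649 bp, and the normalized lists began at 1358 bp. XKR3 had 181 bp in T32, 268 bp in T2 and 0 bp in 12 lists, and FIBCD1 had 200 bp in T32 and 0 bp in 13 lists. LAMC3 was at 0 in every list and could not be tested.

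**Figure D5:**
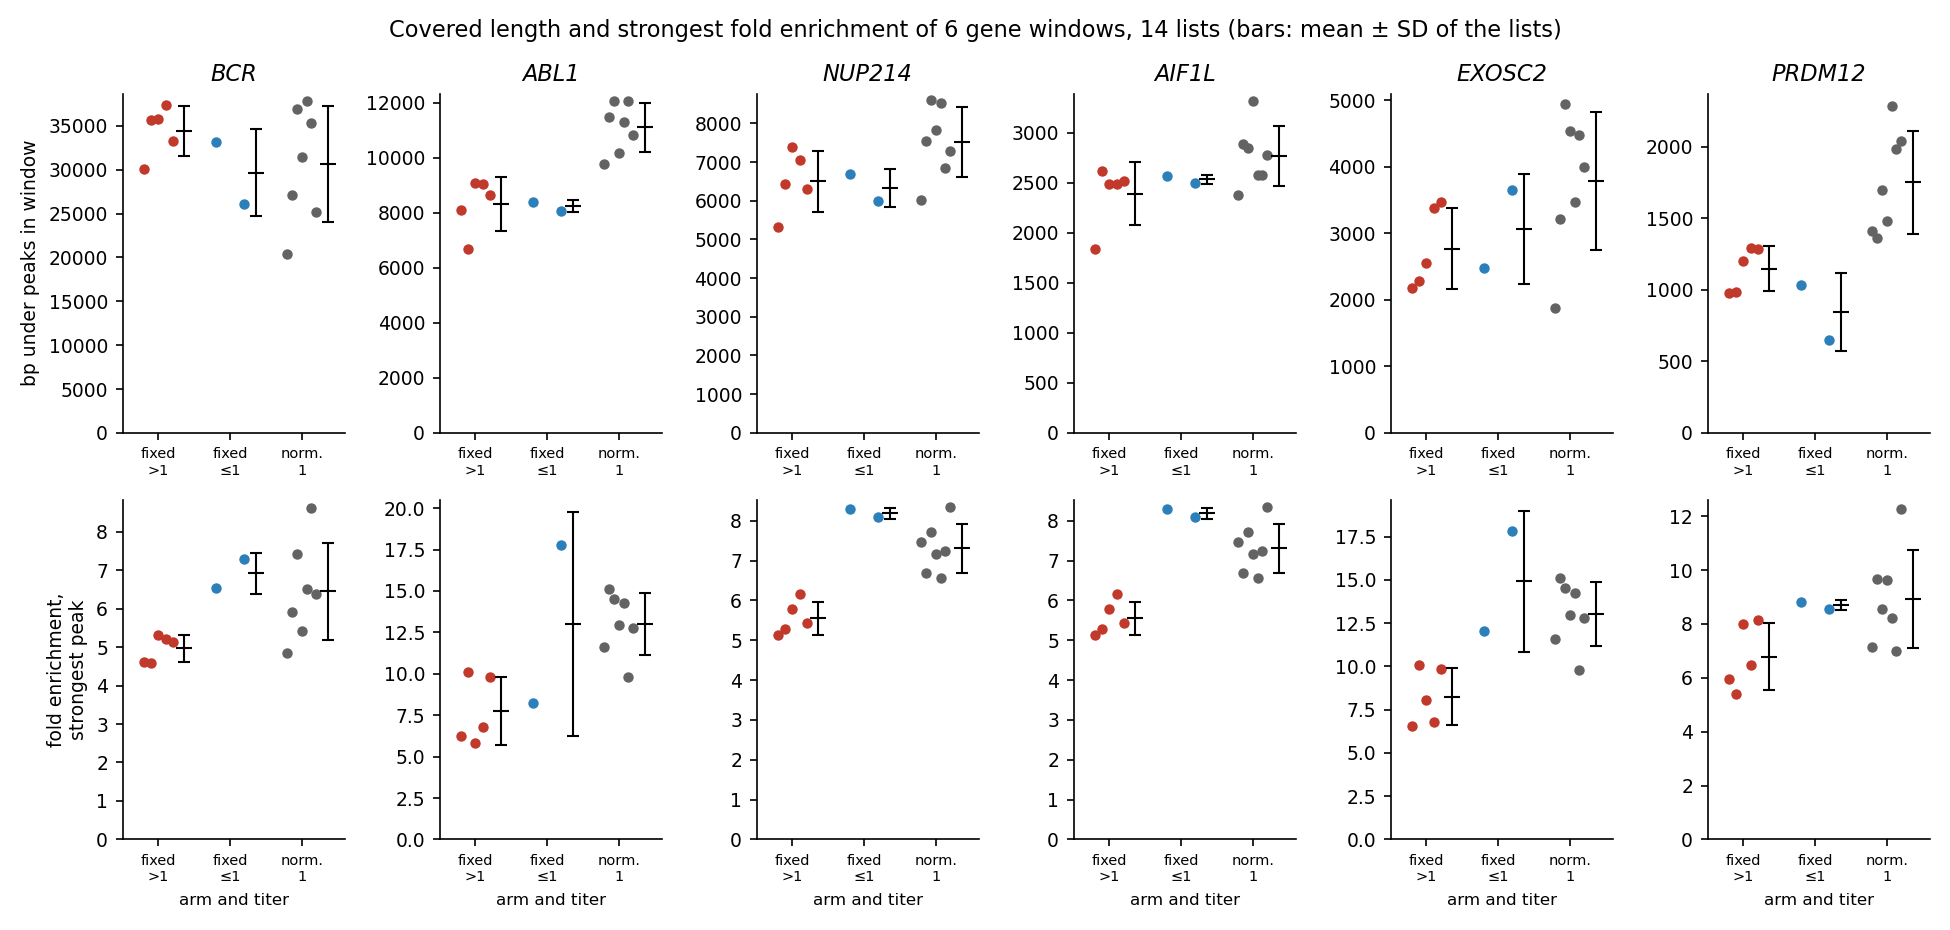
Bases under peaks in the gene window (upper row) and fold enrichment of the strongest peak in the window (lower row) for 6 genes, with 1 point per list by arm and titer and the mean ± SD of the lists beside the points. ABL1 and PRDM12 covered length separates the fixed from the normalized arm, BCR covered length overlaps in all groups, and the NUP214 peak, which is also the AIF1L value, is lower in all 5 lists of titer over 1.

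The strongest fold enrichment of a window fell at titer over 1 in all 6 members that could be tested. Over all 12271 genes with a peak in every list, 71.7% were called lower and 0.0407% higher, so that calls among members followed a call that most genes shared. The median difference on the log2 scale was −0.43 over the members and −0.53 over all genes. The differences of log2 fold enrichment were −0.75 for ABL1 (exact permutation test, adjusted p = 0.00907) and −0.71 for EXOSC2 (exact permutation test, adjusted p = 0.00419). In 11 of the 14 lists the strongest peak of the EXOSC2 window was the upstream ABL1 start, so these 2 values largely rest on the same peak. NUP214 and AIF1L, which share the peak at the NUP214 start, fell by 0.43 (exact permutation test, adjusted p = 0.00235), from 2.90 ± 0.127 to 2.47 ± 0.106 (SD of 9 and 5 lists). PRDM12 fell by 0.39 (exact permutation test, adjusted p = 0.0249) and BCR by 0.38, from 2.69 ± 0.250 to 2.31 ± 0.102 (exact permutation test, adjusted p = 0.0150). In NUP214 every list of titer over 1 was below every other list, as in 22.7% of all genes. In ABL1 the relative background at the upstream start, given above, differed between lists with overlapping ranges, 1.06 to 2.63 at titer over 1 and 0.918 to 2.96 in the others, with the highest value in T1a, and its part in the difference was not tested.

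Comparing matched amounts, the list of higher titer had the weaker strongest peak in 6 of 6 pairs for BCR, ABL1 and EXOSC2. For NUP214, AIF1L and PRDM12 this held in 5 of 6 pairs. NUP214 and AIF1L share their strongest peak, and ABL1 and EXOSC2 largely do, so these counts are not independent. Covered length was larger at the higher titer in 3 of 6 pairs for BCR and in 2 of 6 for EXOSC2. It was larger in 1 of 6 for ABL1, NUP214, AIF1L and PRDM12, the pair of 20 µg, where the normalized list has the higher titer. Each pair sets a fixed-arm list against a normalized list, and in these genes the fixed-arm list covered less in every pair. For NUP214, AIF1L and PRDM12 it also had the weaker strongest peak in every pair. For BCR, ABL1 and EXOSC2 it had the stronger one at 20 µg. Titer cannot be told apart from arm and input in these pairs. The shares of all genes with such pairs are not given, so nothing particular to the members is read from these counts. Without pairing, 71.7% of all genes were called lower in strongest fold enrichment at titer over 1, and 54.8% in covered length. Paired by amount of DNAchrom as a block, 0 members were called for either measure, in a test that called 0% of all genes and whose 6 pairs allow no p below 0.0312.

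To ask how the amount of DNAchrom affected these genes at constant titer, covered length was correlated with log2(DNAchrom) over the 7 normalized lists. In this fit 0 of 6 members passed after adjustment by the exact permutation test, and 0% of the 14571 genes tested were called in either direction. At an unadjusted p under 0.05 there were 1 member and 2940 genes, which is 20.2% of the genes. The member was PRDM12, with Pearson's r = 0.80 (exact permutation p = 0.0397, adjusted p = 0.230) and Spearman's rho = 0.82 (exact permutation p = 0.0341), and r = 0.77 without the lists of 0.31 and 20 µg (exact permutation p = 0.142). For the other 5 members r was between 0.08 and 0.55, and leaving out 1 list turned its sign in 4 of them, with ranges of −0.15 to 0.49 in ABL1, −0.41 to 0.22 in AIF1L, −0.45 to 0.38 in NUP214 and −0.079 to 0.81 in BCR, but not in EXOSC2. Without the lists of 0.31 and 20 µg r was 0.62 in BCR, 0.22 in EXOSC2, 0.077 in ABL1, −0.33 in NUP214 and −0.46 in AIF1L, so no direction is read for these 5 genes. BCR had its lowest value of 20402 bp in H3K27ac-0.31-T1 and the next lowest, 25165 bp, in H3K27ac-20-T1, at the 2 ends of the range of amounts. By the mapping results in the paper, H3K27ac-20-T1 had the fewest uniquely mapped pairs of the 14 libraries. H3K27ac-0.31-T1 had the lowest share of unique pairs and the lowest complexity. In the normalized arm the share of unique pairs also rose with the amount of DNAchrom from 0.31 to 2.5 µg. The part of depth and mapping in these correlations and in the 2 BCR values was not tested.

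Genes whose products act with the members were read from the same fit. Of 26 adaptors and effectors of the BCR-ABL1 kinase, 19 were called lower in covered length at titer over 1 and 0 higher, with a median difference of −1939 bp against −1070 bp over all genes and a background of 54.8% called lower. The largest were BCL2L1, an anti-apoptotic BCL2 relative, which fell from 55408 ± 1823 to 41594 ± 9209 bp, and LYN, a SRC-family kinase, which fell from 24849 ± 3158 to 12903 ± 4038 bp. STAT5B, a transcription factor activated by the kinase, and GRB2, the adaptor that binds BCR, changed by −9786 and −8606 bp. CRKL, an adaptor and substrate of the kinase, lay in the raised part of chromosome 22 at a relative background of 3.31 and fell from 14528 ± 3518 to 7296 ± 1520 bp (exact permutation test, adjusted p = 0.00942). Of the 10 other core or catalytic genes of the RNA exosome 7 were called lower, EXOSC4, EXOSC9, EXOSC1 and EXOSC3 the most, with differences of −2702, −2157, −2154 and −2145 bp. Of 8 partners of NUP214 at the nuclear pore 7 were called lower, led by NUP98, NUP62, XPO1 and NUP88 with −5895, −4388, −4029 and −2626 bp. The lists were chosen with earlier results of these data known, and nothing particular to a list is read from these counts.

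K562 markers and the number of peaks per list are given for reference, and their relation to the values above was not tested. All 9 erythroid marker genes had a peak in every list, 8 of them were called lower in covered length at titer over 1, where 54.8% of all genes were, and TAL1 was not. Of the markers of other cell types reported here, PAX5 and MYOD1 had no peak, ALB had one in 4 lists and CD3E in 12. The lists held 64083 to 82143 peaks at the threshold used.

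Over the 14 lists, the genes whose covered length was most like that of BCR were CEP131, BEGAIN and BBLN, with Pearson's r of 0.89, 0.89 and 0.86. For ABL1 they were CREG1, GTF2H4 and CCAR1, with r of 0.94, 0.94 and 0.93, and for NUP214 CARNS1, SUGP2 and RNF208, with r of 0.88, 0.88 and 0.87. The points are the same 14 libraries, which share 2 inputs and differ in titer and amount, and the correlations describe likeness only.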

How the data were processed

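H3K27ac ChIP-seq peak lists of 14 K562 libraries were analysed, and the 2 inputs entered only through peak calling. The authors aligned reads with BWA, removed duplicates and called peaks with MACS2 in each library. The deposited columns hold the fold enrichment (a ratio to local background), the −log10 p and −log10 q, and an integer score derived from q, which was not used. The paper names hg19, whereas the submitters' processing notes name hg38 and the contig names are those of GRCh38, so positions were read as GRCh38. Deposited peaks reach a q-value of 5%, and those of at most 1% were used.

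Genes and promoters came from RefSeq (GRCh38.p14). Bases under peaks and the strongest fold enrichment were computed per gene window (gene body plus 10 kb) and tested over 14 lists by exact permutation over lists with Benjamini-Hochberg adjustment over all genes. A fold enrichment is (pileup + 1)/(background + 1). With the Poisson p-value this was solved for pileup and background, and 100% of the 1171964 deposited peaks gave a whole pileup within 0.001 on the −log10 p scale. The precision of a peak is set by its pileup, and the depth of the libraries is not in the lists. Functions were tested on simulated data. Members, gene lists, thresholds and tests were chosen with earlier results of these data known. The gene lists name up to 4 called genes with the largest difference in covered length, and of the neighbours the genes beside each step in background. CRKL, RAB36, PRAME, SMARCB1, CCT8L2 and IL17RA were named after their values were seen. A marker gene of another cell type is not reported here. Python 3.11.15, numpy 2.4.6 and scipy 1.17.1 were used.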

Additional observations from a re-analysis of the deposited data

Results flagged for a closer look

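Among 26 sets of values, covered length or strongest fold enrichment of a member in the 5 lists of titer over 1 or the 7 normalized lists, 2 had a single list far from the rest by Dixon's criterion. Chance gives about 1 in 20 where values are continuous, which does not hold for FIBCD1. AIF1L covered length was 1836 bp in T32, while the nearest of the other 4 lists of titer over 1 had 2485 bp. FIBCD1 covered length was 200 bp in T32 and 0 bp in the other 4 lists, from a single peak with a fold enrichment of 2.43 in the flank it shares with ABL1. With 4 values at 0, a peak of any size would meet the criterion, so nothing is read from this flag. Both were in the list with the least chromatin and the highest titer, which held 64083 peaks at the threshold used, the lowest number of the 14 lists.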

How the results depend on the processing

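The number of members called lower in covered length, 1 of 8, was small and moved with the settings. It was 2 at a −log10 q of at least 3 (ABL1 and AIF1L), where 58.4% of all genes were called lower. It was 0 with all deposited peaks and 0 with ranks, where 53.0% and 45.5% of all genes were called lower. With 50 kb on either side ABL1 was called lower, as were 68.3% of all genes. FIBCD1, whose window then reached other genes, was called higher in that setting, as were 0.252% of all genes. Against the 5 normalized lists of the same DNAchrom the number called lower was 2 (PRDM12 and ABL1), where 16.9% of all genes were called lower. It was 0 within the fixed arm, where the smallest possible p was 0.0476 and ABL1 turned to a difference of 81.2 bp. It was also 0 with amounts paired as a replicate block. These 2 settings called 0% of all genes, so their 0 says nothing about the members. Leaving out 1 list gave 0 to 3 members, with 38.9% to 64.1% of all genes called lower. ABL1 lost its call without T32, T16, H3K27ac-0.62-T1, H3K27ac-1.25-T1, H3K27ac-5-T1, H3K27ac-10-T1b or H3K27ac-20-T1, with differences between −2451 and −1745 bp over all 14 omissions. BCR covered length was not called in any setting, and its adjusted p ranged from 0.151 to 0.525.

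The 6 members called lower in strongest fold enrichment stayed 5 or 6 without any 1 list, and PRDM12 lost its call without T32 or T16. The number was 0 within the fixed arm and 0 in the paired block, 2 tests that called 0% of all genes. Against the 5 normalized lists of the same DNAchrom, BCR and PRDM12 lost their calls. No member was called against DNAchrom in any of 4 alternatives or 7 omissions. The median relative background over member windows was 5.21, and 3.37 from the strongest peak of each window alone, since the strongest ABL1 peak lies before the step. Other settings moved this pooled median by less than the spread between lists. Taken by gene, 4 of 4 settings did so in PRDM12, EXOSC2, AIF1L and NUP214, 3 of 4 in ABL1, 2 of 4 in BCR and 2 of 3 in XKR3. FIBCD1 had a value in 1 list and so no spread. The pileup of a peak and the depth of 2 inputs limit the background values, and the causes of these changes were not tested.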
